A study of Mus musculus with 5 samples.

Results

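The subject is a set of 40 cell cycle genes, 16 that act around the start of DNA replication and in S phase and 24 that act in G2 and mitosis, out of 17902 genes listed in any of the 5 deposited tables. The members were taken by name, as 1 list. The study counted RNA cell by cell in interstitial (non-cardiomyocyte) cells of adult mouse hearts, which had been digested with collagenase, freed of cardiomyocytes and sorted on surface cKit, DDR2 and CD45. cKit is a receptor tyrosine kinase of stem, mast and some endothelial cells, DDR2 a collagen receptor of fibroblasts, and CD45 the surface phosphatase of leukocytes. Of the 4 sorts, cKit+/DDR2- was measured in 2 libraries, here replicates 1 and 2. A single library stands for each of cKit-/DDR2+, cKit+/DDR2+/CD45- and cKit+/DDR2+/CD45+. No treatment is named, and strain, genotype, sex and the number of animals behind a library are not given in the sources used here. Single libraries give no spread between samples, so the sorts are compared by values alone, without p-values. Intervals below cover counting error only.

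To copy its genome, a cell loads the MCM helicase onto DNA, makes more deoxynucleotides and switches on cyclin E and then cyclin A. To divide, it builds cyclin B with the kinase Cdk1, condenses its chromosomes, attaches them to a spindle and degrades the cyclins. Genes of the first group are classically driven by E2F factors and those of the second by the MuvB complex, through a short element called the cell cycle genes homology region (CHR) that often stands near CCAAT boxes. In the adult heart most interstitial cells rest, while resident macrophages are known to renew partly by local division. Endothelial cells that express Apln, the gene of the peptide apelin, are known from sprouting vessels.

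The promoters that could be matched differed in part between both groups, most widely in the CHR letters. RefSeq promoters of GRCm38.p6, the assembly behind the mm10 build of the files, were matched by symbol for 32 of the 40 members, with 35 windows of 250 bases before to 50 after a start. Not matched were Aurkb, Ccna2, Ccne2, Gins2, Mcm4, Smc4, Stmn1 and Tpx2. An E2F-type motif (TTTCCCGC, TTTGGCGC, TTTCGCGC or TTTGCCGC, either strand) was in 6 of 15 S windows, those of Mcm3, Mcm5, Mcm6, Mcm7, Pclaf and Uhrf1. It was in 1 of 20 G2M windows (Cdk1) and in 2.26% of 32851 promoters of the same length. The CHR letters TTTGAA, either strand, were in 15 of 20 G2M windows, in 1 of 15 S windows (Mcm2) and in 17.9% of all promoters. CCAAT, either strand, was in 18 of 20 G2M windows, 12 of 15 S windows and 37.4% of all. CHR and CCAAT stood together in 75% of the G2M windows, 6.67% of the S windows and 6.95% of all promoters. Such matches describe letters and show no bound factor.

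Below are the 150 bases before the start for 2 S members with E2F-type letters and 5 G2M members with CHR and CCAAT letters. Levels of 6 of them are compared below, and Cdc20 is shown for its letters. They run 5′ to 3′ on the gene's strand, and capitals mark the motif letters named above, which run on where matches overlap. Mcm6 is at chr1:128359706-128359855 (minus strand), Mcm5 at chr8:75109359-75109508 (plus), Cdk1 at chr10:69352913-69353062 (minus) and Mki67 at chr7:135716380-135716529 (minus). Top2a is at chr11:99024190-99024339 (minus), Ube2c at chr2:164769779-164769928 (plus) and Cdc20 at chr4:118437344-118437493 (minus).
Mcm6: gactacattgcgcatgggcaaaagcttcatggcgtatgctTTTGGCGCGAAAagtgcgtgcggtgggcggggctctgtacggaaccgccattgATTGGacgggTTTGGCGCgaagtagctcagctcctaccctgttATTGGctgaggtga
Mcm5: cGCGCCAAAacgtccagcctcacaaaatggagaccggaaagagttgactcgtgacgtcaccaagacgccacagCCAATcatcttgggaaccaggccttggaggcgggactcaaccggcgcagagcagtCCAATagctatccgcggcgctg
Cdk1: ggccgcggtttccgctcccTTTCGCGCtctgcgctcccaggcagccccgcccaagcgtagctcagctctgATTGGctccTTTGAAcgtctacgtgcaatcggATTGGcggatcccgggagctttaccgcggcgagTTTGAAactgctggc
Mki67: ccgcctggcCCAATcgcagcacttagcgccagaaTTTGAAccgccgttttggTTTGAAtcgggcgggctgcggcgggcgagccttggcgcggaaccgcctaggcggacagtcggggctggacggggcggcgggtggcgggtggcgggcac
Top2a: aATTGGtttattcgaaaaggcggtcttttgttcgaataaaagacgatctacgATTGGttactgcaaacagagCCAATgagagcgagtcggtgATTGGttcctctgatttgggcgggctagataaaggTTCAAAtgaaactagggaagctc
Ube2c: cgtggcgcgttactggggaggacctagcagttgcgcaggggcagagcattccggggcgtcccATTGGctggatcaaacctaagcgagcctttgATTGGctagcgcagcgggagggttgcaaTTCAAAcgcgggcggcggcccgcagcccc
Cdc20: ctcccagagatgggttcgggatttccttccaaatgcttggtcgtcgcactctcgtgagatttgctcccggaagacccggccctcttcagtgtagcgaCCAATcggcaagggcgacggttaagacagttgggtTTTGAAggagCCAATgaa
The Mcm6 stretch holds 3 E2F-type matches, 2 of them overlapping, and the Mcm5 stretch holds 1. Cdk1, the mitotic kinase, is the only member shown with all 3 kinds of letters. In Mki67, Top2a, Ube2c and Cdc20 the CHR letters lie on either strand beside CCAAT or its reverse, ATTGG.

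Libraries held between 436 cells (cKit+/DDR2- replicate 1) and 3898 cells (cKit+/DDR2+/CD45+), with 4047326 to 44847778 UMIs (unique molecular identifiers, each standing for 1 captured transcript) and medians of 7529 to 10972 UMIs a cell. Ccne1 and Ccnb1 are not listed in cKit+/DDR2- replicate 1 and cKit+/DDR2+/CD45-, Ccnb2 and Hmmr not in replicate 1, and Bub1 not in cKit-/DDR2+. They were taken as 0 there. Whether genes seen in few cells were left out upstream is not given in the sources used here. Replicate 1 and cKit+/DDR2+/CD45+ share 190 cell barcodes, 43.6% of the former and 4.87% of the latter, while other pairs of libraries share 1 to 3. In cKit+/DDR2+/CD45+ those barcodes hold a median of 622.5 UMIs and none reaches 3000, so none enters its shares below. In replicate 1 they hold a median of 12134 UMIs and at least 7016. In expression, all 190 cells of replicate 1 were closest to their own barcode among the 190 of cKit+/DDR2+/CD45+. The predicted gene Gm42418 took 9.09% of UMIs in replicate 2 and 10.6% in cKit+/DDR2+/CD45-, against 0.980% to 1.39% in the other 3 libraries. Xist was at 496 and 757 CPM (UMIs of a gene per 1000000 UMIs) in the same 2 libraries, which do not list the Y-linked Ddx3y, whereas the other 3 hold Ddx3y at 58.8 to 98.6 CPM. A difference between sorts that crosses this split cannot be told apart from it.

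Cells were gated on 1 or 2 genes: C1qa for macrophages (at least 3 UMIs), Xcr1 for dendritic cells, Cdh5 for endothelial cells, split by Apln, and Pdgfra for fibroblasts (at least 1 UMI each). Cells passing 2 gates were set apart as mixed. Summed levels of 6 markers each were set beside the labels. Each list includes the gene that set its own gate, so the sums are partly fixed by the gates. They are no independent check. Macrophage markers came to 13190 and 13879 CPM in the macrophage gates of replicate 2 and cKit+/DDR2+/CD45+ and to at most 75.3 CPM in the other gates used. Dendritic markers came to 4907 CPM in the dendritic gate, endothelial markers to 3202 to 5546 CPM in the endothelial gates and fibroblast markers to 46593 and 60858 CPM in the fibroblast gates. Apln-type markers (Apln, Nes, Esm1, Kcne3, Adm and Col4a2) came to 1709, 2612 and 1889 CPM in the Apln-positive gates of cKit-/DDR2+, replicate 1 and cKit+/DDR2+/CD45-. Other endothelial cells of those libraries held 938, 273 and 343 CPM of them. The other endothelial gates also held 1598 to 2190 CPM of fibroblast markers in the libraries used, and that of cKit-/DDR2+ held 8240 CPM of erythroid markers. Their part in the results was not tested.

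To compare gates at one depth, each cell was thinned to 3000 UMIs, shallower cells were left out, and a cell was called cycling-gene-positive when at least 3 of the 16 S members or at least 3 of the 24 G2M members were seen. At 3000 UMIs such cells were most frequent, by value, in the Apln-positive gate of cKit+/DDR2+/CD45-, at 18 of 114 cells (15.8%, exact 95% interval 9.63 to 23.8%). Apln-positive cells of replicate 1 came to 8 of 63 (12.7%, 5.65 to 23.5%) and those of cKit-/DDR2+ to 2 of 79 (2.53%, 0.308 to 8.85%). Macrophage-gated cells came to 244 of 3281 (7.44%, 6.56 to 8.39%) in cKit+/DDR2+/CD45+ and 29 of 491 (5.91%, 3.99 to 8.37%) in replicate 2. Dendritic cells, present in number in replicate 2 only, came to 15 of 211 (7.11%, 4.03 to 11.5%). The intervals of the 3 immune gates overlap. Those of the dendritic gate and of replicate 1 Apln-positive cells also overlap that of Apln-positive cells of cKit+/DDR2+/CD45-. Without thinning, deeper cells show more members. The shares were then 36.8%, 31.7% and 13.9% in the Apln-positive gates in the order above. They were 43.1% and 34.8% in macrophages and 46.0% in dendritic cells, whose median depth was 18716 UMIs. Dendritic cells and macrophages of cKit+/DDR2+/CD45+ thus came above every Apln-positive gate. Apln-positive cells of replicate 2 and cKit+/DDR2+/CD45+ numbered only 38 and 18 at 3000 UMIs. In replicate 2, 1 of 11 with a Kit UMI and 3 of 27 without were positive. In cKit+/DDR2+/CD45+ it was 1 of 6 with and 1 of 12 without.

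Other endothelial cells were low in the 4 libraries with at least 50 of them at this depth. Their shares were 2.45% of 857 cells in cKit-/DDR2+, 1.72% of 291 in replicate 1, 0.946% of 1692 in replicate 2 and 1.97% of 965 in cKit+/DDR2+/CD45-. In cKit+/DDR2+/CD45+, with 39 such cells, 2 were positive (0.627 to 17.3%). Fibroblasts, a cell type known for DDR2, came to 9 of 789 (1.14%, 0.523 to 2.15%) in cKit-/DDR2+ and 1 of 138 (0.725%) in replicate 2. Unthinned shares were 7.70%, 15.5%, 15.0% and 16.2% in these other endothelial gates and 13.3% and 13.0% in fibroblasts. Both endothelial gates held at least 50 cells in cKit-/DDR2+, replicate 1 and cKit+/DDR2+/CD45-. The intervals of both gates overlapped in cKit-/DDR2+ and did not in replicate 1 and cKit+/DDR2+/CD45-. The upper bounds of other endothelial cells were 3.06% in cKit+/DDR2+/CD45- and 3.96% in replicate 1. These intervals count cells of 1 library each and hold no spread between animals. Without the barcodes shared with cKit+/DDR2+/CD45+, other endothelial cells of replicate 1 came to 4 of 149 (2.68%), and too few Apln-positive cells were left for a value. Cells left out as too shallow numbered 84 and 24 in the macrophage gates, 14, 2 and 0 in the Apln-positive gates, 196, 14, 50 and 79 in the other endothelial gates, 6 and 2 in fibroblasts and none in the dendritic gate.

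Positive cells were then split by the list on which they passed. In Apln-positive cells of cKit+/DDR2+/CD45- all 18 positive cells passed on S members and 11 of them also on G2M members, with none on G2M alone. In macrophages of cKit+/DDR2+/CD45+ 126 cells passed on S members only, 60 on G2M members only and 58 on both. Replicate 2 macrophages split evenly, with 12, 12 and 5 cells. Dendritic cells of the same library had 4, 9 and 2 cells, which is a share of 2.84% for S (1.05 to 6.09%) and 5.21% for G2M (2.63 to 9.14%), intervals that overlap. No Apln-positive cell of cKit-/DDR2+ held 3 G2M members (0 of 79 cells), and no replicate 2 fibroblast held 3 S members (0 of 138). Taking 3 cells as the limit that a count of 0 allows, here and below, these shares could be up to 3.80% and 2.17%.

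**Figure D1:**
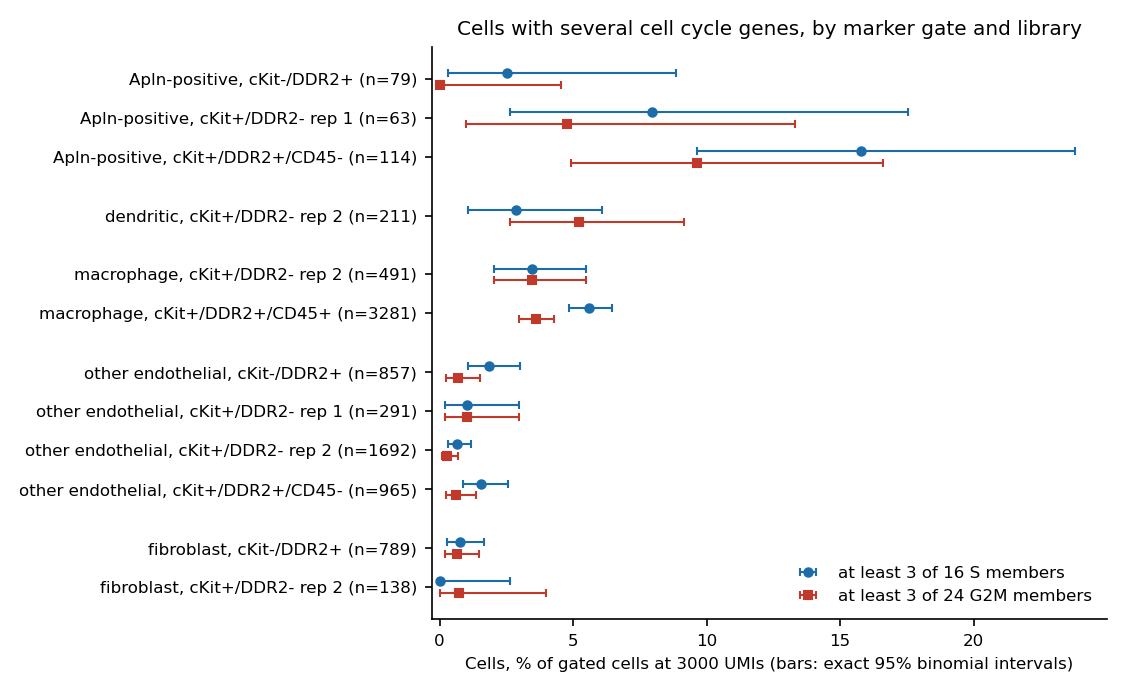
Share of cells with at least 3 S members (circles) and at least 3 G2M members (squares) in each marker gate and library, in percent of cells thinned to 3000 UMIs, with exact 95% binomial intervals. The Apln-positive cells of cKit+/DDR2+/CD45- reach 15.8% for S and 9.65% for G2M, the macrophage and dendritic gates lie between 2.84 and 5.61%, and other endothelial cells and fibroblasts stay below 2%.

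Cells with 10 or more of the 40 members were rare in every gate. Among macrophages of cKit+/DDR2+/CD45+ there were 47 such cells of 3281 (1.43%), with up to 26 members in a cell. There were 5 of 211 dendritic cells (2.37%), 5 of 114 Apln-positive cells of cKit+/DDR2+/CD45- (4.39%), 5 of 491 replicate 2 macrophages (1.02%) and none of 1692 other endothelial cells of that library. Fibroblasts of cKit-/DDR2+ had 2 such cells, with up to 23 members. The 9 positive cells of that gate, 1.14% of it, held 90.9% of 44 Mki67 UMIs and 92.3% of 78 Top2a UMIs, but only 5.31% of 414 Pcna UMIs. Among other endothelial cells, Npr3-positive (endocardial-type) cells came to 12 of 1114 in replicate 2 (1.08%), 5 of 446 in cKit+/DDR2+/CD45- (1.12%), 1 of 151 in replicate 1 and 3 of 60 in cKit-/DDR2+. Prox1-positive (lymphatic-type) cells came to 0 of 191 in replicate 2 (up to 1.57%), 0 of 66 in replicate 1 (up to 4.55%) and 2 of 75 in cKit+/DDR2+/CD45-. Cells with neither gene came to 2.30%, 7.02% (4 of 57), 1.19% and 3.27% in cKit-/DDR2+, replicate 1, replicate 2 and cKit+/DDR2+/CD45-.

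Among S members the helicase subunits Mcm2 to Mcm7, which form the ring that unwinds DNA, were highest in Apln-positive cells of cKit+/DDR2+/CD45- except Mcm2, which was higher in those of replicate 1 (36.5 against 28.7 CPM). Mcm6 was at 75.4 CPM in Apln-positive cells of cKit+/DDR2+/CD45-, 36.5 in those of replicate 1 and at 0 of 634947 UMIs in those of cKit-/DDR2+. Macrophage gates held it at 19.3 and 22.1 CPM, dendritic cells at 12.4, and the remaining gates less, with 3.86 to 8.47 in the 4 other endothelial gates and 2.56 and 3.09 in fibroblasts. Mcm3 ran from 6.41 and 6.96 CPM in fibroblasts and 10.3 in dendritic cells, through 17.2 to 24.9 in other endothelial cells and 31.4 and 32.3 in macrophages, to 52.1 and 62.3 in Apln-positive cells of replicate 1 and cKit+/DDR2+/CD45-. Mcm4 was flatter, at 10.0 to 20.7 CPM in every gate except the Apln-positive ones of cKit-/DDR2+ (7.87) and cKit+/DDR2+/CD45- (47.6). Mcm5 was at 22.3 and 25.2 CPM in macrophages and at most 7.37 CPM in other endothelial cells and fibroblasts. Mcm7 was at 60.7 CPM in the Apln-positive cells of cKit+/DDR2+/CD45- and at 10.2 to 38.2 CPM in the 11 other gates. In dendritic cells, although 7.11% were positive, Mcm2 was at 4.23 CPM and no subunit passed 15.1 CPM.

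The genes of nucleotide supply did not form one pattern. Tyms (thymidylate synthase) and Rrm1 (large subunit of ribonucleotide reductase) were read in every gate used. Outside the Apln-positive cells of cKit+/DDR2+/CD45-, Tyms ranged from 13.2 to 29.5 CPM and Rrm1 from 6.87 to 22.6 CPM. In those cells they were at 54.1 and 34.4 CPM. Rrm2, the subunit that cells make in S phase, and Tk1 (thymidine kinase) were near absent in other endothelial cells, at 0.512 to 1.55 CPM and 0.351 to 1.15 CPM. Rrm2 was highest in dendritic cells (10.0 CPM) and Apln-positive cells of cKit+/DDR2+/CD45- (8.20 CPM), and Tk1 in the latter (23.0 CPM). Pcna, the sliding clamp of replication and repair, was broadly expressed, at 91.2 and 107 CPM in macrophages, 96.8 in Apln-positive cells of cKit+/DDR2+/CD45-, 51.8 in dendritic cells and 34.6 to 57.9 in the other endothelial and fibroblast gates. Pclaf, the PCNA clamp-associated factor, was narrower: 60.7 CPM in Apln-positive cells of cKit+/DDR2+/CD45-, 19.6 in dendritic cells, 14.2 in macrophages of cKit+/DDR2+/CD45+, 1.79 in those of replicate 2 and 0.512 to 5.26 in other endothelial cells. The cyclins E, Ccne1 and Ccne2, did not exceed 3.96 and 9.02 CPM in any gate used.

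Among G2M members, the cyclins and Cdk1 were low. Cdk1 was at 32.8 CPM in Apln-positive cells of cKit+/DDR2+/CD45-, 11.7 and 7.17 in macrophages, 8.45 in dendritic cells and 1.05 to 2.59 in other endothelial cells. Ccnb2 (cyclin B2) was at 8.52 and 4.98 CPM in macrophages, 9.25 in dendritic cells and 4.10 in the Apln-positive cells with high Cdk1. Ccnb1 did not exceed 5.12 CPM in any gate. The chromosome and proliferation genes showed the Apln-positive cells of cKit+/DDR2+/CD45- highest: Mki67 (the Ki-67 antigen) was at 40.2 CPM there (49 UMIs in 7 cells), 21.9 in dendritic cells, 16.5 and 8.96 in macrophages, 3.88 and 0 in fibroblasts and 0.192 to 3.80 in other endothelial cells. Top2a (topoisomerase that untangles sister chromatids) was at 41.0, 19.3, 20.8 and 8.36 CPM in the first 4 of these gates. Prc1, which bundles the central spindle, was at 31.2 CPM in those Apln-positive cells and at most 8.71 CPM elsewhere. Ube2c, which marks mitotic cyclins for degradation, was ordered otherwise, at 1.64 CPM (2 UMIs) in those Apln-positive cells, 10.6 in dendritic cells, 10.2 and 8.36 in macrophages and 6.79 in fibroblasts of cKit-/DDR2+.

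Some G2M members were read widely outside positive cells and ordered the gates in another way. Smc4, a condensin subunit that compacts chromosomes, was highest in other endothelial cells of replicate 2 (174 CPM), cKit+/DDR2+/CD45- (148 CPM) and replicate 1 (115 CPM) and in dendritic cells (112 CPM). It was at 50.6 CPM in other endothelial cells of cKit-/DDR2+, 51.0 and 57.6 in fibroblasts and 60.8 and 71.7 in macrophages. Cenpa, the centromere histone, and Kif23, a kinesin of the midbody, were highest in the leukocyte gates. Cenpa was at 65.1 and 53.1 CPM in macrophages and 37.0 in dendritic cells against 5.11 to 12.8 CPM in other endothelial cells and fibroblasts. Kif23 was at 28.5, 31.1 and 20.1 CPM against 0.641 to 5.01 CPM, and at 6.30 to 13.9 CPM in Apln-positive cells. Stmn1, a microtubule destabiliser also used in resting cells, ran from 2.56 and 15.8 CPM in fibroblasts to 66.5 and 111 in macrophages and 197 in Apln-positive cells of cKit+/DDR2+/CD45-. The other spindle genes, among them Tpx2, Aurka, Aurkb, Kif11, Hmmr, Nusap1 and Prc1, did not exceed 8.71 CPM in any macrophage, dendritic, fibroblast or other endothelial gate.

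**Figure D2:**
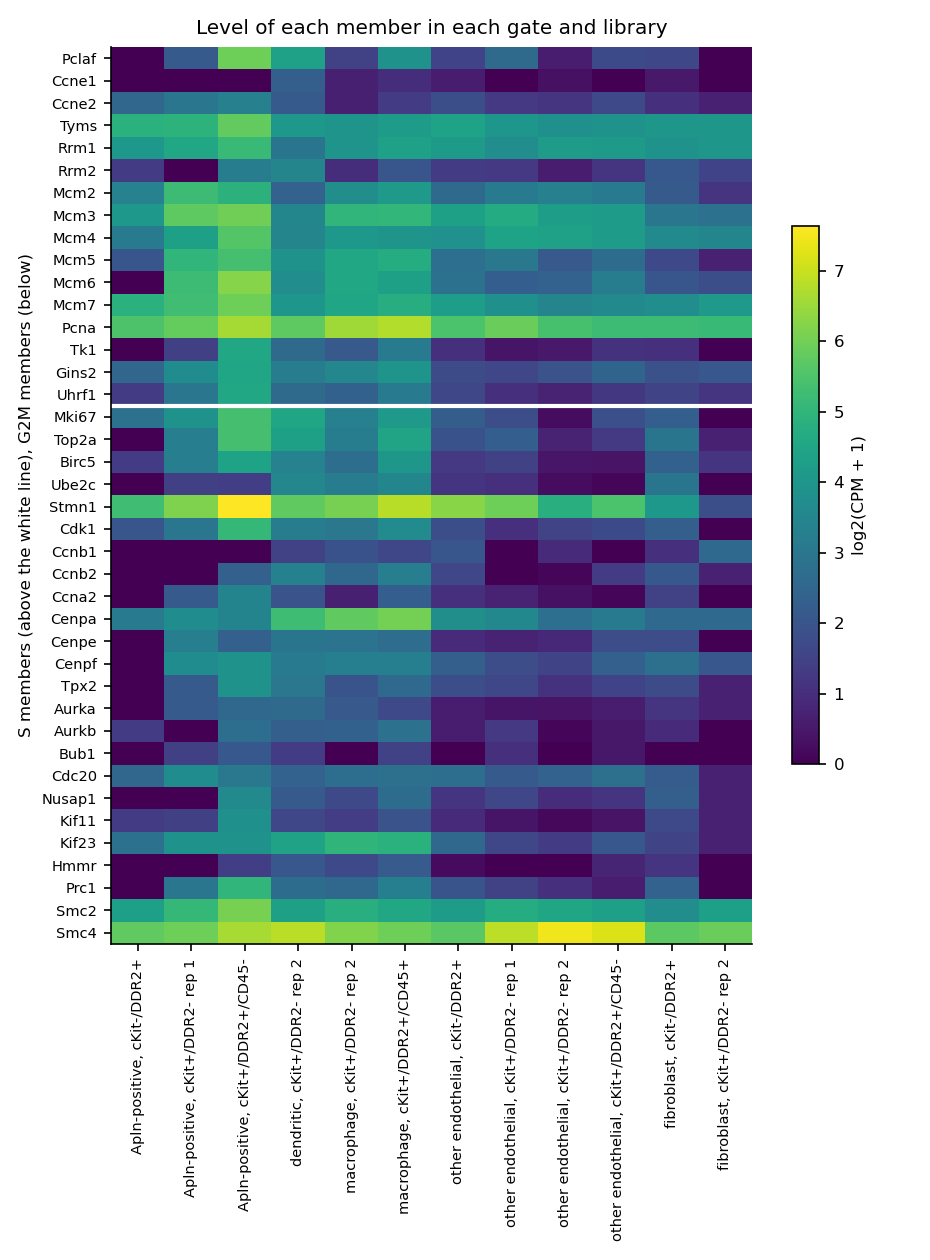
Level of each of the 40 members, as log2(CPM + 1), in 12 combinations of gate and library, with S members above and G2M members below the white line. Pcna and Stmn1 are bright in macrophages, Smc4 in endothelial and dendritic gates, and the column of Apln-positive cells of cKit+/DDR2+/CD45- is bright across most S members but dark at Ccne1, Ccnb1, Ube2c and Hmmr.

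How far each member keeps to cells that hold others of its list was read in macrophages of cKit+/DDR2+/CD45+, a gate with at least 87 cells beside 3 other members for every member. Mki67 was seen in 36.3% of cells with at least 3 other G2M members and in 0.688% of cells with none. Top2a gave 34.6% and 0.859%, Ccnb2 23.0% and 0.288%, and Ccna2 and Hmmr 13.6% each and 0%. Among S members Pclaf was seen in 18.4% of cells with at least 3 others and 0.275% of cells with none, Uhrf1 (a factor that keeps DNA methylation after replication) in 17.3% and 0.495%, and Tk1 in 15.0% and 0.385%. In all, 25 members, 6 S and 19 G2M, were in fewer than 1% of cells with none of the others. The remaining 15 were Mcm2 to Mcm7, Tyms, Rrm1, Pcna, Gins2, Stmn1, Cenpa, Kif23, Smc2 and Smc4. Pcna was in 22.4% of cells without other S members (55.4% with), Cenpa in 15.8% (36.2% with), Smc4 in 12.7% (42.6% with), Stmn1 in 11.4% (70.1% with) and Kif23 in 6.53% (22.3% with).

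The shares above can hold cells that reached 3 members through the broadly expressed genes. With 3 of the 25 low-background members required in their place, a count chosen after the data were seen, shares were 6.14% in Apln-positive cells of cKit+/DDR2+/CD45-, 3.17% in those of replicate 1 and 0 of 79 in those of cKit-/DDR2+. They were 3.79% in dendritic cells, 2.07% and 1.22% in macrophages of cKit+/DDR2+/CD45+ and replicate 2, and 0 to 0.687% in other endothelial cells. Apln-positive cells of cKit+/DDR2+/CD45- remained highest by value, and fibroblasts came to 0.380% and 0. These shares rest on few cells, of 114 and 63 in the first 2 Apln-positive gates and 211 in the dendritic gate. No intervals are given for them. The order of the gates and the difference between the endothelial gates of replicate 1 were not tested with this count. The 25 were picked in the macrophages of cKit+/DDR2+/CD45+, so the count is no independent value for that gate.

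**Figure D3:**
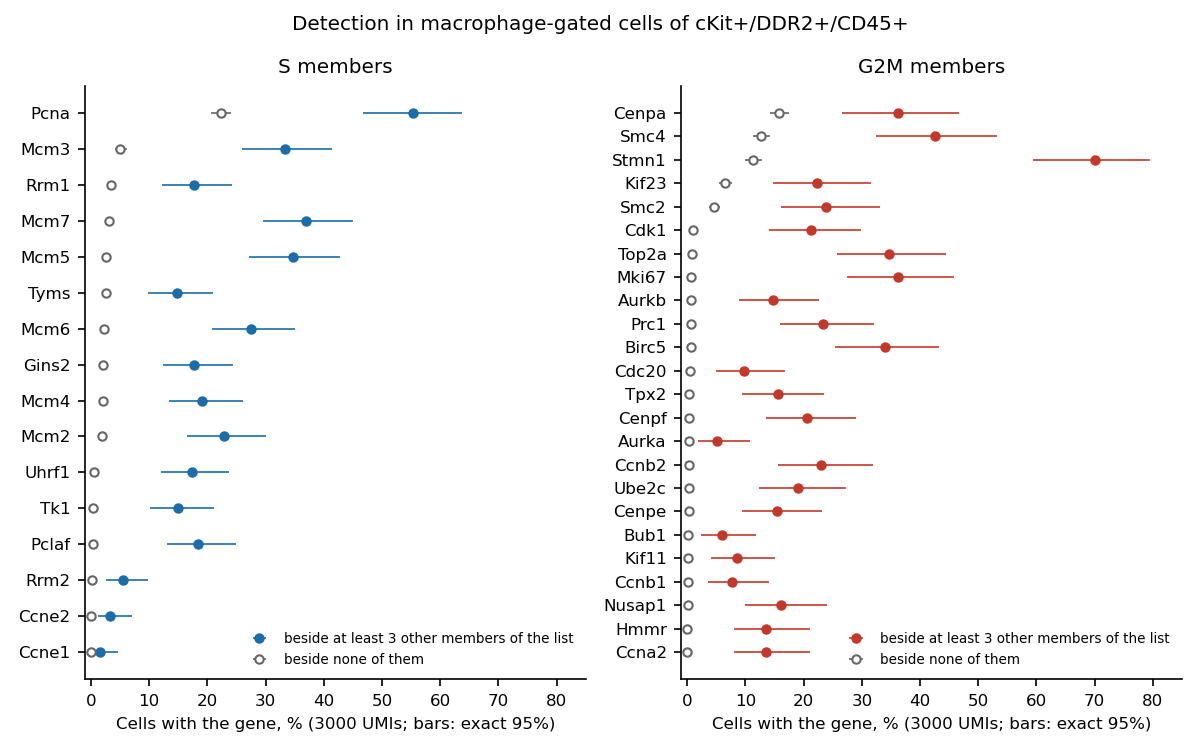
Percent of macrophage-gated cells of cKit+/DDR2+/CD45+ in which each member was seen at 3000 UMIs, beside at least 3 other members of its list (filled) and beside none (open), with exact 95% intervals. All 40 filled points lie to the right of the open ones, and Pcna, Cenpa, Smc4, Stmn1 and Kif23 have open points between 6.53 and 22.4%.

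Positive cells held more of the members' UMIs than their number. In Apln-positive cells of cKit+/DDR2+/CD45-, the 18 positive cells held 21.8% of all UMIs but 73.1% of S and 81.9% of G2M UMIs, including every one of 49 Mki67 UMIs, 98% of 50 Top2a UMIs and 95.9% of 74 Pclaf UMIs. In macrophages of cKit+/DDR2+/CD45+ positive cells held 9.74% of all UMIs, 42.6% of S and 55.5% of G2M UMIs, with 90.8% of Pclaf and 86.3% of Mki67 but 23.8% of Pcna and 17.6% of Cenpa. Since the members defined the positive cells, these shares are a description. Positive macrophages also held more RNA before thinning, with medians of 15327 against 11114 UMIs in cKit+/DDR2+/CD45+ and 13163 against 9417.5 in replicate 2. Doublets were not called. Mixed cells, where doublets of 2 gated types would fall, were positive in 11 of 175 cells of cKit+/DDR2+/CD45+ (6.29%), 2 of 88 of replicate 2 and 1 of 182 of cKit-/DDR2+.

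Cell cycle genes outside the 40 were also higher in positive cells. In macrophages of cKit+/DDR2+/CD45+, 244 positive cells were set against 1028 cells with no member, and a gene was counted when it had at least 10 CPM and 20 UMIs on the higher side and was at least 2-fold apart after 1 CPM was added to each side, as in all fold counts below. Of 30 other S genes all 30 passed the filter and were higher, with Hells (a chromatin remodeller) at 66.0 against 2.42 CPM and Chek1 (the S phase checkpoint kinase) at 18.9 against 0.323. The smallest differences were Slbp at 129 against 58.2 CPM, Nasp at 94.6 against 40.3 and Rfc2 at 111 against 40.7. Of 41 other G2M genes 38 passed and 37 were higher, led by the kinetochore gene Spc24 (53.5 against 0.807 CPM), Cdca3 (32.6 against 0.403) and the cohesin acetyltransferase Esco2 (20.4 CPM against 0). Only Cdc25b, at 19.4 against 9.52 CPM, stayed under 2-fold on that scale. The background over 8038 genes was 4.06% higher and 0.510% lower. A gene that passes through its high side alone had to differ, so these counts show only how the lists lie.

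Regulators of entry and exit differed less. Of 25, 23 passed and 6 were at least 2-fold higher in positive macrophages, led by Foxm1 (13.9 against 0.726 CPM), E2f2 (13.9 against 1.69) and Rbl1 (31.4 against 6.86), with none lower. Cdkn1c, an inhibitor of cyclin-dependent kinases, was at 9.21 against 15.3 CPM, Rb1 at 35.1 against 44.8 and Btg1 at 344 against 436. Replicate 2 macrophages, with 29 positive cells against 149, had 7 of 10 other S genes and 6 of 7 other G2M genes higher (background 2.66% higher, 5.68% lower), among them Lig1 (123 against 11.5 CPM), Hells (63.1 against 3.39) and Ckap2l (63.1 against 0.679). In other endothelial cells of cKit-/DDR2+, with 21 positive cells against 349, 7 of 9 other S genes but 1 of 3 other G2M genes were higher (background 4.25% higher, 13.5% lower). Lig1 (DNA ligase) was at 84.3 against 11.3 CPM there, and Hmgb2, the G2M gene, at 374 against 147.

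The clearest difference between cell types of one library was that of Apln-positive and other endothelial cells in cKit+/DDR2+/CD45-. Of 40 members 21 passed the filter of 10 CPM and 20 UMIs, 19 were at least 2-fold higher in Apln-positive cells and none lower, against a background over 8116 genes of 5.83% higher and 11.0% lower. Pclaf was at 60.7 against 2.30 CPM, a log2 ratio of 4.22 after adding 1 CPM to each side. Mcm6 was at 75.4 against 8.47 CPM (log2 ratio 3.01), Cdk1 at 32.8 against 2.30 (3.36), Mki67 at 40.2 against 2.62 (3.51), Top2a at 41.0 against 1.46 (4.09) and Stmn1 at 197 against 43.6 (2.15). Exact 95% intervals of the plain log2 ratio, without the added CPM, were 4.02 to 5.48 for Pclaf, 2.71 to 3.60 for Mcm6, 3.22 to 4.70 for Mki67 and 1.94 to 2.41 for Stmn1. They take each UMI as a separate draw and leave out the spread between cells. In the Apln-positive cells the 74 Pclaf UMIs lay in 12 cells and the 49 Mki67 UMIs in 7, so these intervals are too narrow. The 2 members past the filter but under 2-fold were Rrm1, at 34.4 against 16.8 CPM, and Smc4, at 98.4 against 148 CPM. Of the 9 members with at least 10 CPM on both sides, 7 were 2-fold higher, while the others past the filter reached 10 CPM on 1 side only and so had to lean that way. Without the positive cells 4 members were 2-fold apart, and 8 with a filter of 50 CPM. All 6 macrophage markers were at 0 in these Apln-positive cells, and median depths were 10148 and 9376 UMIs. Both groups come from 1 library, so the split between libraries does not enter.

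The same comparison gave less in the other libraries. In replicate 1, 8 members passed and 4 were higher, all helicase subunits: Mcm2 at 36.5 against 7.72 CPM (log2 ratio 2.10), Mcm6 at 36.5 against 3.86 (2.95), Mcm7 at 38.2 against 13.3 (1.45) and Mcm3 at 52.1 against 24.9 (1.04), with 5.98% higher and 17.2% lower over all 7225 genes. Of the 6 with at least 10 CPM on both sides 2 were higher, Mcm7 and Mcm3. Pcna, at 55.6 against 57.9 CPM, and Stmn1, at 69.5 against 60.7, were close. Mki67, at 13.9 against 2.46 CPM, had too few UMIs to pass, with 8 in Apln-positive cells. The same rule kept out Mcm5, at 31.3 against 7.37 CPM (18 UMIs), Kif23, at 13.9 against 2.10, and Gins2, at 12.2 against 2.10. It also kept out members that were close, such as Smc2 at 33.0 against 25.6 CPM and Cenpa at 12.2 against 10.9. The 65 cells there include 24 with a barcode shared with cKit+/DDR2+/CD45+, and without them too few were left for a value. In cKit-/DDR2+, 7 members passed and none was 2-fold apart, against 0.821% higher and 5.73% lower over 7066 genes. Mcm3 was at 15.7 against 19.0 CPM, Pcna at 44.1 against 43.5 and Smc4 at 53.5 against 50.6 there, and Stmn1, at 37.8 against 75.6 CPM, leaned the other way. The difference between libraries in this contrast was not tested.

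**Figure D4:**
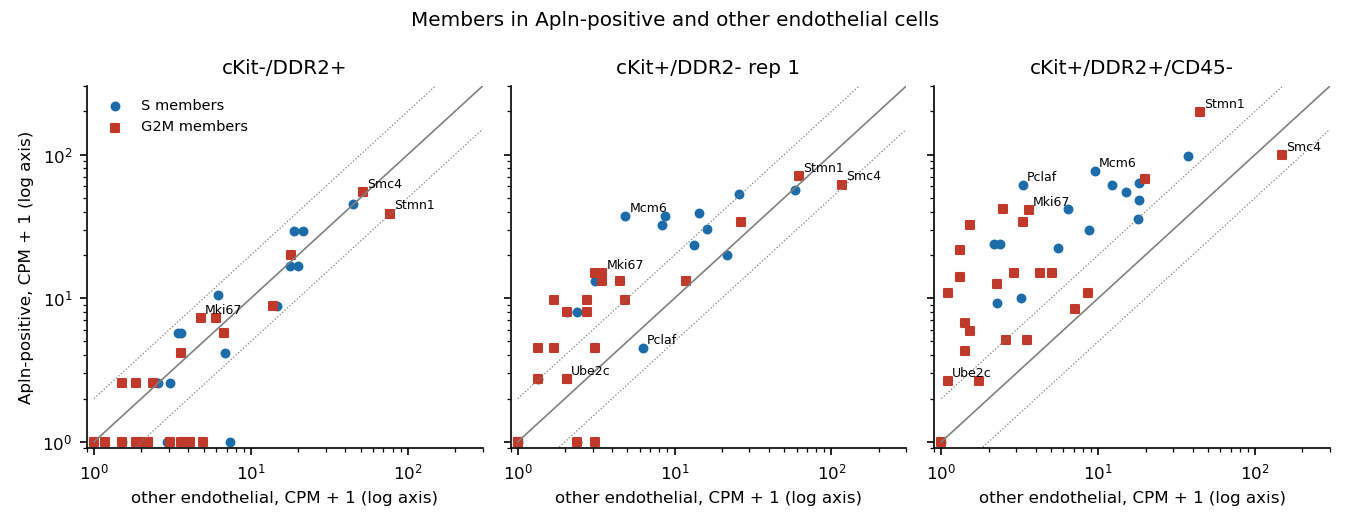
Level of each member in Apln-positive cells against other endothelial cells of the same library, both as CPM + 1 on log axes, with the line of equality and dotted lines at 2-fold, in the 3 libraries with at least 50 cells of each. In cKit+/DDR2+/CD45- most members lie above the upper dotted line, with Smc4 below equality, while in cKit-/DDR2+ the higher members lie along the line of equality.

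Outside the members, 17 of 20 other S genes past the filter were higher in Apln-positive cells of cKit+/DDR2+/CD45-, with E2f1 at 23.8 against 0.837 CPM and Hells at 55.8 against 3.77. With at least 10 CPM on both sides it was 5 of 8. Of 9 other G2M genes 7 were higher, with Cdca8 at 18.0 against 1.57 CPM and Cks2 at 35.3 against 4.18, and 1 was lower, Cdc25b at 5.74 against 12.6. With at least 10 CPM on both sides 1 of 2 was higher, and the 4 higher genes named here passed through the Apln-positive side alone. In the other 2 libraries none of the 6 and 7 other S genes past the filter was 2-fold apart. Of the regulators, 2 of 18, 3 of 14 and 5 of 21 were higher and 1, 2 and 3 lower in Apln-positive cells of cKit-/DDR2+, replicate 1 and cKit+/DDR2+/CD45-. The backgrounds over all genes were 0.821%, 5.98% and 5.83% higher and 5.73%, 17.2% and 11.0% lower, so the lower counts were near them. With at least 10 CPM on both sides 2 of 16, 2 of 13 and 2 of 17 regulators were higher. Among the higher ones, Ccnd1 (cyclin D1) was at 676, 629 and 634 CPM in the Apln-positive cells of cKit-/DDR2+, replicate 1 and cKit+/DDR2+/CD45-, and at 299, 144 and 220 CPM in their other endothelial cells. Mycn was at 55.1, 46.9 and 34.4 CPM against 16.7, 4.21 and 7.74, and Cdk6 at 52.0, 67.8 and 65.6 against 26.1, 21.7 and 21.4. Ccnd1 and Mycn passed 2-fold in all 3 libraries and Cdk6 in the latter 2, with a log2 ratio of 0.97 in cKit-/DDR2+. In replicate 1 and cKit+/DDR2+/CD45-, Mycn reached 10 CPM in Apln-positive cells alone and so had to lean that way. Among the lower ones, Cdkn1c was at 64.3 against 189 CPM in replicate 1 and 122 against 271 in cKit+/DDR2+/CD45-.

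Dendritic cells were compared with macrophages within replicate 2. Of 20 members past the filter 4 were higher and 2 lower in dendritic cells, against 7.16% higher and 18.5% lower over 7889 genes. None of the 12 members with at least 10 CPM on both sides was 2-fold higher, so the 4 passed through the dendritic side alone. Pclaf was at 19.6 against 1.79 CPM (log2 ratio 2.88, plain interval 2.45 to 4.63), Rrm2 at 10.0 against 0.995 (2.47), Mki67 at 21.9 against 8.96 (1.20) and Top2a at 19.3 against 8.36 (1.12). Mcm2 was at 4.23 against 12.5 CPM and Mcm3 at 10.3 against 31.4, log2 ratios of -1.37 and -1.52. The other helicase subunits were also on the lower side without passing 2-fold, with log2 ratios from -0.78 for Mcm6 to -0.51 for Mcm7. The median over all 7889 genes was itself on that side, at -0.27. Smc4, at 112 against 71.7 CPM, was higher by less than 2-fold. Outside the members, none of 14 other S genes was 2-fold higher and 2 were lower, Pola1 and E2f1. Of 8 other G2M genes 2 were higher and 1 lower, and of 20 regulators 2 were higher and 4 lower. The nuclear lamin gene Lmnb1 was at 147 against 16.7 CPM, E2f2 at 18.2 against 1.59, and the inhibitor Cdkn1a at 20.3 against 422. E2f2 passed through the dendritic side alone.

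Macrophages of cKit+/DDR2+/CD45+ differed from those of replicate 2 in 3 of 21 members, against 0.655% higher and 0.835% lower over 7788 genes. None of the 15 members with at least 10 CPM on both sides was among them, so the 3 passed through their high side alone. Pclaf was at 14.2 against 1.79 CPM (log2 ratio 2.45, plain interval 2.06 to 4.13), Top2a at 20.8 against 8.36 (1.22, 0.87 to 1.80) and Birc5, the survivin subunit of the chromosomal passenger complex, at 15.3 against 5.77 (1.27, 0.87 to 2.00). Mki67, at 16.5 against 8.96 CPM (0.81), and Stmn1, at 111 against 66.5 (0.73), leaned the same way under 2-fold. Helicase subunits lay between -0.19 (Mcm6) and 0.37 (Mcm2) on the log2 scale. None of 15 other S and 8 other G2M genes was 2-fold apart. No member passed 2-fold when positive cells were left out or when each cell was weighted equally, and 1 did with 5 CPM added. These 2 libraries lie on either side of the Gm42418 and Xist split. Each side is 1 library, since the macrophage gate of replicate 1 held only 23 cells.

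Among other endothelial cells, cKit+/DDR2+/CD45- differed from cKit-/DDR2+ in 1 of 10 members (background 5.74% higher, 5.78% lower), Smc4 at 148 against 50.6 CPM (log2 ratio 1.53, 1.37 to 1.74). Both cKit+/DDR2- libraries also held Smc4 above cKit-/DDR2+ in this gate. Replicate 1, at 115 CPM (103 to 128 CPM), was below cKit+/DDR2+/CD45- (140 to 156 CPM), and replicate 2 was above it. Against these 2 libraries cKit+/DDR2+/CD45- differed 2-fold in none of 10 members (replicate 1, background 1.43% and 2.02%) and none of 9 (replicate 2, 1.59% and 0.573%). In the 90 such cells of cKit+/DDR2+/CD45+ Smc4 was at 69.1 CPM (26 UMIs, 45.1 to 101 CPM). The makeup of the gate moved beside it: endocardial markers came to 4884 CPM in cKit+/DDR2+/CD45- against 670 CPM in cKit-/DDR2+, lymphatic markers to 2578 against 94.3 CPM, and Npr3-positive cells to 454 of 1044 against 65 of 1053. Their part in the Smc4 difference was not tested. Pcna lay between 36.2 and 57.9 CPM and Mcm4 between 13.6 and 20.7 CPM in the other endothelial gates of the other 4 libraries.

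Whole libraries mix these gates, with macrophages at 86.3% of cells in cKit+/DDR2+/CD45+ and other endothelial cells at 78.7% in cKit+/DDR2+/CD45-. Positive cells were lowest in cKit-/DDR2+ (1.75%), at 3.69% and 2.65% in replicates 1 and 2, at 3.13% in cKit+/DDR2+/CD45- and highest in cKit+/DDR2+/CD45+ (7.36%). In cKit+/DDR2+/CD45+ against cKit+/DDR2+/CD45-, 9 of 20 members were higher and Smc4 lower (background 14.5% and 21.1%), with Pcna at 104 against 41.7 CPM, Cenpa at 62.2 against 7.62, Kif23 at 27.4 against 4.10 and Birc5 at 14.8 against 2.34. Of the 10 members with at least 10 CPM on both sides Pcna alone was 2-fold higher, and the others that were higher passed through their high side alone. Against cKit-/DDR2+, cKit+/DDR2+/CD45- was higher in 2 of 10 members (background 5.69% and 8.76%), Mcm6 at 15.2 against 4.33 CPM and Smc4 at 137 against 50.5, and in 5 members once mitochondrial genes, Gm42418 and Lars2 were left out of the total. It differed 2-fold from both cKit+/DDR2- libraries in none of 13 members (background 0.743% and 3.27%), and from replicate 2 alone in 2. Mcm5, at 11.1 and 9.44 CPM in cKit+/DDR2- replicates 1 and 2 against 3.71 CPM in cKit-/DDR2+, was the only one of 12 members 2-fold apart in that comparison (background 6.31% and 6.94%). With either replicate alone 3 members were, Mcm5 among them only with replicate 1, since it was under 10 CPM in replicate 2.

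Cells with a Kit UMI were too few for a comparison. Among cells at 3000 UMIs, 2 of 44 dendritic cells with a Kit UMI and 13 of 167 without were positive (4.55%, 0.555 to 15.5%, and 7.78%, 4.21 to 12.9%). In Apln-positive cells of cKit+/DDR2+/CD45- the counts were 4 of 27 with and 14 of 87 without (14.8%, 4.19 to 33.7%, and 16.1%, 9.09 to 25.5%). The intervals overlap in both.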

How the data were processed

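The deposited tables hold, per the file headers and values, 1 row per gene symbol and 1 column per cell, as the natural log of 1 plus UMIs scaled by the authors to 10000 a cell. Per the submitters' processing notes, Cell Ranger (version not given in the sources used here) and Seurat 4.0.4 were used with build mm10, and the labels' protocols name droplet chemistry that reads the 3' end. UMIs were recovered from the deposited values (100% whole within 0.01), so depth is known: 4047326 to 44847778 UMIs a library. Unlisted genes were set to 0, and cells were taken as deposited.

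Each cell was thinned without replacement to 3000 UMIs (seed 11 and up). Shares above 0 have exact Clopper-Pearson 95% intervals, and a share of 0 has a limit of 3 cells of the total. Levels are UMIs summed over a gate as CPM. Log2 ratios add 1 CPM, need at least 10 CPM and 20 UMIs on the higher side, and count as apart from 2-fold; cKit+/DDR2- counts only where both libraries are apart on the same side, and its level is their mean. Intervals of single-library ratios are exact conditional ones without the added CPM. They take each UMI as a separate draw, so the spread between cells is left out and they are too narrow where few cells hold the UMIs. Gates with under 50 cells were left out. Named members are the subject; those with values are the members with most UMIs per role group, and of each other list the 3 largest and 3 smallest ratios, of which the text gives part. Kif23, Ccne1, Ube2c and genes at the bottom of a group were added after their values were seen. The members, gates and lists were chosen with earlier results of these data known. Replicates 1 and 2 are separate samples in the labels, which do not say whether they came from separate animals. Fold calling was tested on simulated data. Python 3.11.15, numpy 2.4.6, scipy 1.17.1, pandas 2.3.3 and matplotlib 3.10.9 were used. Alternatives are given in the closing section.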

Additional observations from a re-analysis of the deposited data

Results flagged for a closer look

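The contrast of cKit+/DDR2+/CD45- with cKit-/DDR2+ differed between 2 endothelial gates, with values above 0 in one and slightly below 0 in the other. In Apln-positive cells the share with at least 3 S members was 13.3 percentage points higher in cKit+/DDR2+/CD45-, and in other endothelial cells it differed by -0.313 points. For G2M members the differences were 9.65 and -0.0784 points, and for either list 13.3 and -0.481 points. Each side is 1 library, so the difference between the gates was not tested, and the small negative values lie within counting error. The Apln-positive cells of the 2 libraries had median depths of 10148 and 6593 UMIs before thinning to 3000.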

How the results depend on the processing

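Shares moved with depth and with the number of members asked for. Having 1 library in 3 of the 4 sorts limits every comparison between sorts. Shares with either list at 3 members, in the order macrophages of cKit+/DDR2+/CD45+, macrophages of replicate 2, Apln-positive and other endothelial cells of cKit+/DDR2+/CD45-, were 1.75%, 1.39%, 5.26% and 0.291% at 1000 UMIs and 43.1%, 34.8%, 36.8% and 16.2% without thinning. Asking for 2 members gave 22.8%, 21.2%, 31.6% and 12.7%, asking for 5 gave 2.68%, 1.22%, 7.89% and 0.311%, and asking for 3 low-background members gave 2.07%, 1.22%, 6.14% and 0.207%. At 5000 UMIs both macrophage gates and the other endothelial cells moved, to 14.5%, 14.1% and 4.51%. Gates of at least 2 UMIs moved the Apln-positive cells to 26.2%. Dendritic cells came to 2.37% at 1000 UMIs, 14.2% for 2 members, 3.79% for 5 members and for 3 low-background members, and 46.0% without thinning. Fibroblasts of cKit-/DDR2+ came to 4.82% for 2 members, 0.380% for 3 low-background members and 13.3% without thinning. The number of members 2-fold apart moved as follows. For Apln-positive against other endothelial cells of cKit+/DDR2+/CD45- it was 8 in place of 19 with a 50 CPM filter and 4 without positive cells. For cKit+/DDR2+/CD45- against cKit-/DDR2+ (2) it was 8 with no CPM filter, 1 at 50 CPM, 5 with mitochondrial genes, Gm42418 and Lars2 left out of the total, and 1 without positive cells. For cKit+/DDR2+/CD45+ against cKit+/DDR2+/CD45- (10) it was 21, 3 at 50 CPM and 5 without positive cells. For cKit+/DDR2- against cKit-/DDR2+ (1) it was 2 with no filter, 0 at 50 CPM, 0 with 5 CPM added, 2 without mitochondrial genes, 0 as a mean over cells, and 3 without either replicate. Against cKit+/DDR2-, cKit+/DDR2+/CD45- differed in 0 members, and in 0 to 2 when 1 replicate was left out. For the 2 macrophage gates (3) it was 7 with no filter, 0 at 50 CPM, 1 with 5 CPM added, 0 as a mean over cells and 0 without positive cells. For dendritic cells against macrophages (6) it was 0 at 50 CPM and 3 with 5 CPM added. Leaving out positive cells, which removes the cells that hold the members, turned the log2 ratio of Apln-positive against other endothelial cells of cKit+/DDR2+/CD45- to -0.0010 for Mcm3, -0.11 for Mcm4, -0.059 for Gins2, -0.40 for Mki67 and -0.014 for Stmn1, and that of Rrm2 between dendritic cells and macrophages to -0.69. Without the shared barcodes the counts of members stayed within 1.5 times of those given in the 11 comparisons that could be run. Where a filter or a left-out set of cells did not remove members, the cause was not tested. No paired analysis was possible because 3 of the 4 sorts have 1 library and replicate numbers only name samples.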
